A study of Rattus norvegicus with 6 samples.

Results

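Reads that aligned to a nuclear tRNA precursor and to no mature tRNA made up 78440 of 1671615 tRNA reads (4.69%) in 6 small RNA libraries of a rat pancreatic cell line, and 8336 of 67949 distinct read sequences. A read sequence was a member when none of its alignments in a library was to a mature tRNA and none was to the mitochondrial genome, and it was counted 1 time with its number of reads. The cells were AR42J, an established line of the rat exocrine pancreas that is used as a model of acinar cells. Of the libraries, 3 came from cells left untreated (0 µM) and 3 from cells given 200 µM sodium taurocholate, a bile salt, for 30 min. Before library preparation the RNA of both groups was deacylated, repaired at its ends and freed of methyl groups that stop reverse transcription, so the libraries hold fragments with several kinds of ends. No label says that replicates came from separate cultures, so the p-values speak only to how these libraries scatter, and that scatter may be technical.

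RNA polymerase III transcribes a tRNA gene with a 5′ leader before the mature tRNA and a 3′ trailer after it, and stops in a run of T in the DNA. RNase P cuts off the leader, RNase Z (ELAC2) cuts off the trailer, and the bases CCA are then added to the new 3′ end, while the TSEN complex removes an intron where there is one. The La protein binds the run of U that ends a new transcript, and cut trailers can persist as small RNAs known as tRF-1. In histidine tRNA, a G that is not in the gene is added before the first base after RNase P has cut.

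Each precursor reference carried 40 bases of leader. A read was placed in the leader if it began at least 4 bases before the mature 5′ end, in the trailer if it began after the mature sequence or within 3 bases of its end, and in the body otherwise. By these places, 18935 reads (24.1%) fell in leaders, 37295 (47.5%) in bodies and 22210 (28.3%) in trailers. Reads were 16 to 51 nt long, and trailer reads at most 37 nt.

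The sequences below carry these results, and were read from the deposited alignments. They are written 5′ to 3′ in DNA letters, and the names are those of the files, a chromosome with the number of the predicted tRNA and its amino acid and anticodon. No genome build was given in the sources used here, so no coordinates are printed. In the first 7, which are trailer reads, capitals mark the run of T at the end.
Met-CAT chr2.trna7907 trailer: tcggaggctttgTTTT
Arg-ACG chr15.trna1072 trailer: ttgggactggtactcctttaTT
Val-TAC chr1.trna7481 trailer: gtggtgtgctagttaaTTTT
His-GTG chr3.trna3497 trailer, 35 nt: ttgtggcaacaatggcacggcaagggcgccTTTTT
His-GTG chr3.trna3497 trailer, 34 nt: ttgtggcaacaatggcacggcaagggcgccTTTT
Cys-GCA chr14.trna5943 trailer: ggggctggtgagatggcTT
Thr-TGT chr10.trna11327 trailer: gggactgcagagatggctc

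In the leader reads, capitals mark the bases before the mature tRNA. The His-GTG reads hold leader alone, and the others run into the tRNA.
His-GTG chr3.trna3497 leader: GTGGCGTTCCGGTAGCTC
His-GTG chr3.trna8791 leader: ACAGGTCCCTGGTAGCTC
Phe-GAA chr12.trna2268 leader: AACGGCCgccgaaatagctc
Pro-TGG chr10.trna13307 leader: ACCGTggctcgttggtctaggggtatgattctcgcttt
Gly-GCC chr3.trna10899 leader: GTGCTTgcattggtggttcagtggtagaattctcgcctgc

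In the body reads, capitals mark the bases that lie outside the mature tRNA without its CCA, at the 5′ end of the first 2 and at the 3′ end of the others.
His-GTG body, 10 precursors: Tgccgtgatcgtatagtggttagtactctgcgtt
Tyr-GTA body, 2 precursors: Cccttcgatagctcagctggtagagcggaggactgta
Ala-TGC chr12.trna5057 body: tccccggcatctccaCT
Val-CAC chr2.trna4363 body: accgggcggaaacaCT
Leu-TAG chr1.trna12832 body: atcccaccgctgccaCA
Tyr-GTA chr15.trna916 body: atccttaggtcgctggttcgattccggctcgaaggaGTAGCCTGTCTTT
Lys-CTT chr2.trna4376 body: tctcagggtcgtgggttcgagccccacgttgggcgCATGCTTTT
Ile-TAT chr17.trna3689 body: ctcacctggagcaTGTTTTCT
Met-CAT chr2.trna7907 body: gctaTCGGAGGCTTTGTTTT

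A few genes held most of the trailer and leader reads. Of 403 nuclear precursors with any read, 367 had a precursor-only read and 246 had one that aligned to no other precursor. Trailer reads of their own were found for 41 precursors, and 8 of these had 50 or more. The 3 precursors with the most trailer reads held 85.3% of them and the top 5 held 95.2%. Leader reads came from more genes, with 137 precursors that had their own and 24 that had 50 or more, and the top 3 held 67.9%. In bodies the top 3 held 26.5%. A single precursor, chr3.trna3497 of His-GTG, had 50 or more reads of its own in both leader and trailer. Reads that aligned to 1 precursor made up 97.6% of trailer, 93.0% of leader and 59.1% of body reads.

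The total of tRNA reads was 193750, 348451 and 229717 in the untreated libraries and 338310, 254998 and 306389 with taurocholate. Of the precursor-only reads, 43.2% aligned without error. The remaining reads had a mismatch at the first base (15.5%), inside the read (25.6%) or at the last base (15.0%), and 0.812% had an inserted or deleted base. The taurocholate library 1 stood apart at the 3′ ends. A mismatched G at the last base was found in 7.88% of its precursor-only reads, against 0.379% to 1.54% in the other 5, and 6.20% of its precursor-only reads held the full 51 nt, against 0.368% to 2.92%. Among miRNAs used to check the labelled tissue, miR-148a took 284171 to 421894 reads per 1000000 miRNA precursor reads (CPM) and miR-7a 41200 to 59670. The acinar miRNAs miR-216a and miR-217 were at or near 0 (at most 0.598 CPM), and miR-375 lay between 2.51 and 77.5 CPM.

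Precursor-only reads took a smaller share of the tRNA reads in each taurocholate library than in any untreated one. The share was 5.61%, 5.00% and 5.43% in untreated libraries 1 to 3 and 3.55%, 4.65% and 4.50% in taurocholate libraries 1 to 3, or 5.35% ± 0.315 against 4.23% ± 0.600 (SD, n = 3 each; two-sided exact permutation p = 0.1). The smallest p that 3 against 3 libraries allow is 0.1, and the Benjamini-Hochberg value over the 7 measures compared in this way was 0.175. Without taurocholate library 1, the lowest, the difference was -0.77 percentage points against -1.11 with it. Over miRNA precursor reads in place of tRNA reads the direction of the means was the same, but the groups overlapped (exact permutation p = 0.3).

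The trailer and the body shared this direction and the leader did not separate the groups. Trailer reads were 1.71%, 1.50% and 1.65% of tRNA reads in untreated cells and 0.871%, 1.15% and 1.30% with taurocholate (exact permutation p = 0.1, adjusted 0.175), and the groups did not overlap. Body reads were 2.60%, 2.34% and 2.51% against 1.91%, 2.12% and 2.12%, also without overlap (exact permutation p = 0.1, adjusted 0.175). Leader reads were 1.31%, 1.17% and 1.27% against 0.771%, 1.38% and 1.08%, where taurocholate library 2 was the highest of all and library 1 the lowest (exact permutation p = 0.5). Whether the changes differ between the places was not tested.

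Trailer reads were short and ended in T. Of them, 80.7% began at the first base after the discriminator base, the last base of the tRNA before CCA, and 91.4% at the first or second. The commonest length was 16 nt (28.1%), the shortest in the files, so shorter trailers are out of view. Their mean length was 19.6, 20.3 and 19.9 nt in untreated libraries and 20.0, 19.6 and 19.8 nt with taurocholate, and these ranges overlapped (exact permutation p = 0.6). A run of 4 T ended 32.0% of the trailer reads and a longer run 14.5%, while 20.0% ended in no T.

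Runs of at least 2 T ended 78.2%, 75.2% and 75.4% of the trailer reads in untreated libraries and 62.9%, 71.5% and 73.3% with taurocholate. Every taurocholate library was below every untreated one, with a mean difference of -7.01 percentage points (76.3% ± 1.71 against 69.3% ± 5.56, SD, n = 3 each; exact permutation p = 0.1, adjusted 0.175). Library 1 of the taurocholate group was the lowest, and without it the difference was -3.84 percentage points. The same order held for the remaining tRNA reads, of which 5.12%, 4.53% and 5.13% ended in 2 or more T in untreated cells and 2.15%, 3.86% and 4.38% with taurocholate. The part of this general difference in the trailer result was not tested. Among body reads that ran 4 bases or more past the mature 3′ end, 67.4% ended in 2 or more T, and among those that ended 1 to 3 bases past it 2.95%.

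The trailer of the arginine gene chr15.trna1072 (Arg-ACG) gave 9665 reads, 43.5% of all trailer reads. Its commonest length was 22 nt (25.7%), and 55.8% of its reads ended in 2 or more T but 6.3% in 4 or more. Its level was 6668, 6299 and 6826 CPM (here per 1000000 tRNA reads of the library) in untreated libraries and 4667, 4831 and 5872 CPM with taurocholate, so the groups did not overlap. Scaled by TMM, which sets the bulk of the tRNA features level between libraries, the log2 fold change was -0.18 ± 0.14 (SE) and did not pass the test (edgeR quasi-likelihood, Benjamini-Hochberg adjusted p = 0.564). It was -0.12 without taurocholate library 2.

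The methionine gene chr2.trna7907 (Met-CAT) gave 6663 trailer reads, of which 74.8% were 16 nt long and 99.5% ended in 4 or more T. They held a steady difference from the reference, A7G counted from trailer base 1, in 99.8% of 6919 covering reads. The lowest library had it in 99.7%. Its level was 6003, 4250 and 5293 CPM in untreated cells and 2400, 3153 and 3874 CPM with taurocholate, again without overlap. The log2 fold change was -0.55 ± 0.19 with an edgeR adjusted p of 0.380. Body reads of the same gene, 272 in all, were at 201, 184 and 313 CPM against 76.9, 110 and 140 CPM (log2 fold change -0.91, edgeR adjusted p = 0.380). The commonest of these, printed above and with 52 reads, began in the tRNA and ran into the trailer.

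The valine gene chr1.trna7481 (Val-TAC) gave 2620 trailer reads, and 83.2% of them began at trailer base 2. They carried C17A in 99.7% of 2606 covering reads, and 80.7% ended in 4 or more T. Levels were 2095, 2061 and 2037 CPM in untreated cells, a narrow range, and 470, 1580 and 1521 CPM with taurocholate. Library 1 of the taurocholate group lay far below the others, and the log2 fold change of -0.65 had an SE of 0.38 (edgeR adjusted p = 0.488) and was -0.29 without that library.

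The histidine gene chr3.trna3497 (His-GTG) gave 1381 trailer reads of 17 to 36 nt, and 46.2% of them were 35 nt long. Their level was 1022, 1180 and 1114 CPM in untreated libraries and 535, 478 and 695 CPM with taurocholate. Each taurocholate library lay below the lowest untreated one. The log2 fold change was -0.77 ± 0.19, the largest F statistic among the precursor-only features tested, and did not pass the threshold (edgeR quasi-likelihood, Benjamini-Hochberg adjusted p = 0.355). The 35-nt read above had 56, 166 and 81 reads in untreated and 39, 50 and 64 with taurocholate, and the 34-nt read 52, 113 and 72 against 40, 22 and 56. These were the 2 precursor-only read sequences that DESeq2 called, at a log2 fold change of -0.96 and -1.03 and an adjusted p of 0.049 each. In edgeR both had an adjusted p of 0.302.

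Trailer reads that began further along, 1709 in all, differed from the others in sequence. Of these, 86.1% held the letters GAGATGGCT in the orientation of the tRNA, a run that was in none of 1593175 tRNA reads outside the precursor-only set and in 244 precursor-only body reads. As background, the rodent repeat B2, itself derived from a tRNA gene, opens with letters that hold this run. The reads were assigned to Cys-GCA chr14.trna5943 (806 reads), Thr-TGT chr10.trna11327 (234), Arg-CCT chr10.trna4368 (61), Ser-TGA chr11.trna2516 (57) and sets of several genes, and 15.3% of them aligned without error. Whether they came from these genes or from repeats elsewhere was not tested. Of the 244 body reads with GAGATGGCT, 103 were a read of Ile-AAT chr5.trna5633 that began at mature base 90. The mature 3′ end of that gene was unknown, so this read could not be placed in a trailer. The Cys-GCA reads were at 588, 528 and 501 CPM in untreated cells and 177, 694 and 509 CPM with taurocholate, and the Thr-TGT reads at 114, 149 and 139 against 103, 235 and 108 CPM. Both overlapped between groups.

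Leader reads were dominated by histidine. Of the 10680 reads that lay wholly in a leader, 80.9% by start and length ended at its last base, next to the RNase P cut. Reads whose last base mismatched the leader are counted in this share, such as forms of 2028 and 773 reads of chr3.trna3497. Of the 10680, 72.4% were 18 nt long. The precursor chr3.trna3497 gave 10363 leader reads, 54.7% of all. Its levels were 7406, 5702 and 6630 CPM in untreated libraries and 4183, 8631 and 5881 CPM with taurocholate, and taurocholate libraries held both the lowest and the highest value. The log2 fold change was 0.11 ± 0.25 (edgeR adjusted p = 0.860), and it was -0.08 by library totals and -0.19 without taurocholate library 2. The leader and the trailer of this gene were fitted apart (0.11 and -0.77), and the difference between them was not tested.

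The 18-nt leader read of chr3.trna3497 that matched the gene throughout had 444, 806 and 537 reads in untreated libraries and 617, 925 and 729 with taurocholate. The commonest form of it with a mismatched last base had 346, 375 and 332 against 172, 443 and 360 reads, and the next such form 108, 155 and 109 against 83, 165 and 153. All 3 forms overlapped between the groups. The precursor chr3.trna8791 gave 1618 leader reads with a related sequence that ends in the same letters. It stood at 1053, 867 and 1088 CPM in untreated cells and 1073, 824 and 943 CPM with taurocholate (log2 fold change 0.13 ± 0.21, edgeR adjusted p = 0.809; -0.08 by library totals and -0.06 without taurocholate library 1).

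Reads that began in a leader and by their length reached past its last base numbered 8255, histidine reads among them. The 2 commonest were the 18-nt leader of chr3.trna3497 with 1 further base that mismatched the tRNA (457 and 297 reads). Such reads do not show a run into the tRNA. All 8255 made up 0.569%, 0.574% and 0.577% of tRNA reads in untreated libraries and 0.318%, 0.543% and 0.446% with taurocholate. The groups did not overlap (exact permutation p = 0.1, not adjusted). Reads wholly in a leader made up 0.740%, 0.593% and 0.690% against 0.453%, 0.837% and 0.630%, which overlapped (exact permutation p = 0.9, not adjusted). The glycine precursor chr3.trna10899 (Gly-GCC, 708 reads) had 98.7% of its leader reads start 6 bases before the tRNA, and most often they were 40 nt long. Its levels were 470, 614 and 631 CPM against 180, 408 and 304 CPM, with no overlap, and the log2 fold change was -0.77 ± 0.29 (edgeR adjusted p = 0.380). The proline precursor chr10.trna13307 (Pro-TGG, 873 reads) began 5 bases before the tRNA in 86.9%, and its levels overlapped, at 743, 637 and 522 against 248, 561 and 522 CPM. The phenylalanine precursor chr12.trna2268 (Phe-GAA, 522 reads) had reads of 20 nt in 84.9%, at 341, 324 and 274 against 171, 451 and 349 CPM (log2 fold change 0.21; -0.10 without taurocholate library 2). The leader reads of Pro-CGG chr10.trna2465, 54 in all, had the smallest p after the His-GTG trailer, at 46.5, 45.9 and 78.4 against 2.96, 15.7 and 19.6 CPM (log2 fold change -1.98 ± 0.51, edgeR adjusted p = 0.355).

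Most body reads lay within a few bases of a mature tRNA end. Reads that began 1 to 3 bases early numbered 13479, and 79.4% of them differed from a mature reference at 1 position. A base before the mature 5′ end has no counterpart in such a reference and counted as a difference. Histidine gave most of these. The set of 10 His-GTG precursors that share a sequence gave 10407 body reads, which stood at 6302, 6971 and 6208 CPM in untreated cells and 4735, 7745 and 5725 CPM with taurocholate. The groups overlapped (log2 fold change 0.09 ± 0.21, edgeR adjusted p = 0.860), and the value was -0.10 by library totals, -0.11 without taurocholate library 2 and -0.03 without reads of 51 nt. The 34-nt read of this set printed above has a mismatch to the precursor at its first base. It had 295, 474 and 330 reads against 150, 343 and 333, while the 32-nt form had 185, 393 and 217 against 313, 422 and 377. The mismatched base is the one before the tRNA, where histidine tRNA receives its added G. Both forms hold T there and not G.

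Reads that ended 1 to 3 bases past the mature 3′ end numbered 18920, and 41.0% of them were 17 nt and 37.9% 16 nt long. Of these reads, 75.2% differed from a mature reference at the last base alone. In such reads 1 base assigns the read to the precursor, and a mature tRNA with another base at that place and a precursor fragment with that end cannot be told apart. Levels of Ala-TGC chr12.trna5057 (3822 reads) were 2957, 2270 and 2743 CPM against 1753, 1910 and 2441 CPM, which overlapped. Those of Val-CAC chr2.trna4363 (3330 reads) were 2400, 2207 and 2760 against 1144, 1914 and 1916 CPM, and those of Leu-TAG chr1.trna12832 (2743 reads) 2065, 1900 and 2325 against 970, 1302 and 1589 CPM. Neither of the last 2 overlapped, with log2 fold changes of -0.39 ± 0.20 and -0.53 ± 0.18 and edgeR adjusted p of 0.429 and 0.380. Without taurocholate library 1 the Val-CAC value was -0.23.

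Body reads that ran 4 bases or more past the mature 3′ end, 4270 in all, hold tRNA and uncut trailer in 1 molecule. They took 0.293%, 0.327% and 0.310% of tRNA reads in untreated libraries and 0.172%, 0.200% and 0.247% with taurocholate, and the groups did not overlap (exact permutation p = 0.1, not adjusted). In contrast, the larger body subgroups overlapped, with unadjusted exact permutation p of 0.6 for reads beginning early and 0.3 for those ending 1 to 3 bases past. Remaining body reads and trailer reads from further along also overlapped (exact permutation p = 0.8 and 0.7). Trailer reads from the trailer start did not (exact permutation p = 0.1). The tyrosine precursor chr15.trna916 (Tyr-GTA) gave 1206 body reads, most often the 49-nt 3′ fragment printed above, which keeps 13 trailer bases. Its trailer carried A10C in 99.5% of 881 covering reads. Levels were 852, 984 and 744 CPM against 535, 604 and 627 CPM, without overlap (log2 fold change -0.37 ± 0.20, edgeR adjusted p = 0.442; -0.21 without untreated library 2). The lysine precursor chr2.trna4376 (Lys-CTT, 501 reads) had a 44-nt 3′ fragment in 42.7%, and 46.9% of its body reads ended in 4 or more T. Its levels of 377, 430 and 309 against 151, 224 and 323 CPM overlapped. The isoleucine precursor chr17.trna3689 (Ile-TAT, 501 reads) was read most often as the 21-nt fragment printed above (71.7% of its body reads had that length), which keeps 8 trailer bases, with its run of T inside the read. It stood at 418, 287 and 361 CPM in untreated cells and 210, 275 and 313 CPM with taurocholate, which overlapped.

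Other body features of smaller p had lower levels. Body reads of Pro-CGG chr10.trna2465 were at 160, 146 and 170 CPM in untreated libraries and 70.9, 106 and 84.9 CPM with taurocholate (log2 fold change -0.68 ± 0.22). Those of 4 Leu-CAG precursors, whose commonest read begins 2 bases before the tRNA, were at 155, 146 and 174 against 82.8, 70.6 and 104 CPM (log2 fold change -0.69 ± 0.22). In both the groups did not overlap, and the edgeR adjusted p was 0.380. On the higher side, the body reads shared by 2 Tyr-GTA precursors, with 1 base before the tRNA in the read printed above, were at 217, 187 and 266 CPM against 207, 263 and 323 CPM, which overlapped (log2 fold change 0.43 ± 0.20, edgeR adjusted p = 0.389).

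Some body features were high in 1 library. Tyr-GTA chr2.trna2175 (263 reads) was at 108, 40.2 and 78.4 CPM in untreated libraries, and at 520 CPM in taurocholate library 1 against 47.1 and 71.8 CPM in libraries 2 and 3. Gln-TTG chr17.trna3717 (130 reads) was at 36.1, 25.8 and 43.5 CPM, and at 234, 39.2 and 49.0 CPM. Their log2 fold changes of 1.85 and 1.92 became -0.16 and 0.48 without taurocholate library 1, the library with the excess of mismatched last G. The part of that excess in these levels was not tested. The commonest Gln-TTG read, with 38 reads that were all in taurocholate library 1, ended in a mismatched G. The commonest Tyr-GTA read, with 63 of 69 reads in that library, ended in a matching G and had its mismatch at base 16 of 17.

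Intron-bearing families could not be seen through introns here. The mature references of Tyr-GTA (92 to 93 nt with CCA), Arg-TCT (88 to 102 nt) and Ile-TAT (96 to 97 nt) were longer than the 74 to 77 nt of 277 of 320 mature references with a known 3′ end. Their intron is thus still in the mature reference, and reads in it do not count as precursor-only. No Leu-CAA precursor was among the references with reads. Summed over all places, Tyr-GTA precursor-only reads were at 1280, 1343 and 1258 CPM against 1348, 992 and 1162 CPM, and Arg-TCT at 583, 783 and 788 against 464, 620 and 646 CPM. Ile-TAT, at 532, 482 and 479 against 307, 353 and 434 CPM, did not overlap between groups. Over 21 amino acids, 18 had a lower mean CPM with taurocholate. In 6 of them the groups did not overlap in that direction (Arg, Ile, Leu, Lys, Met and Val), and in 1, selenocysteine with 11 reads in all, they did not overlap in the other direction. For Lys the lowest untreated value was 898.1 CPM and the highest taurocholate value 897.6 CPM. These sums are parts of the precursor-only reads, whose share was itself lower with taurocholate (4.23% against 5.35% of tRNA reads). A share of lower mean CPM over all tRNA features was not counted. For single tRNA features, a smaller unit than these sums, the groups did not overlap in CPM for 15.4% of all tested in the lower direction and 3.66% in the higher.

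No precursor-only feature passed the test between the groups. A feature is a place in a precursor, or in the set of precursors that a read matches equally, and 93 of 845 had enough reads to be tested, with 92.1% of the precursor-only reads. In edgeR's quasi-likelihood test, adjusted over all 273 tRNA features tested, 0 of the 93 were called (0.0% of all tested), and DESeq2 called 0 (0.0% of all tested). At an unadjusted p under 0.05 edgeR had 14 (10.6% of all tested), 13 lower and 1 higher with taurocholate, beside 5.49% lower and 5.13% higher over all. DESeq2 had 10 lower and 2 higher, beside 4.41% and 3.68% over all, and edgeR with library totals 16 lower and 1 higher, beside 10.3% and 1.47% over all. The groups did not overlap in CPM for 23 of the 93, all lower (15.4% of all tested lower and 3.66% higher). In CPM scaled by TMM 21 were lower and 4 higher (11.7% and 10.3% of all tested). Without the filter on low counts edgeR called 7 of 845 precursor-only features (1.05% of all tested), all higher with taurocholate and all with most reads in taurocholate library 1. The features that passed the filter are not all members, and those high in 1 group pass more easily.

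The log2 fold change was negative for 61 of the 93 precursor-only features (48.0% of all tested), and the median was -0.21 for the 93 precursor-only features and 0.02 for all 273. Library totals in place of TMM moved these medians to -0.39 and -0.16. By place the median was 0.04 for 12 trailer features, -0.24 for 52 body and -0.20 for 29 leader features. The 5 trailer features of Arg-ACG, Met-CAT, Val-TAC and His-GTG, whose reads mostly began at trailer base 1 or 2, had log2 fold changes of -0.77 to -0.18, and the other 7 of -0.08 to 0.68. That division was made after the values were seen, and the Cys-GCA and Thr-TGT trailers and the set of 5 precursors among the 7 changed sign in an alternative.

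Single read sequences gave a like picture. Of 132 precursor-only sequences tested, edgeR called 0 (0.0% of 2233 tested), while 19 had an unadjusted p under 0.05 (14.1% of all tested), and all 19 were lower with taurocholate (7.12% of all tested lower and 6.99% higher). By library totals 14 were lower and 0 higher (5.91% and 1.61%). The groups did not overlap in CPM for 37, all lower (12.7% of all tested lower and 4.75% higher), and in CPM scaled by TMM for 25 lower and 1 higher (9.09% and 10.0%). The log2 fold change was negative for 88 of the 132 (47.8% of all tested), with a median of -0.31 against 0.03 over all. DESeq2 called 2, the histidine trailers above (5.35% of all sequences with an adjusted p), and at an unadjusted p under 0.05 it had 16 lower and 1 higher (7.03% and 7.07% of all tested). Without the filter on low counts edgeR called 14 of 8336 (0.184% of all tested). Among the 3 lower sequences of smallest p was the 17-nt Met-CAT trailer, 1 T longer than the read above, at 273, 396 and 292 reads against 159, 205 and 272 (log2 fold change -0.66, edgeR adjusted p = 0.302).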

How the data were processed

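Each line of the deposited tables holds, per the file headers, where a single distinct read sequence aligned in a mature tRNA, a tRNA precursor or a miRNA precursor, with its count of reads and its mismatches. Positions (Left and Right) and lengths are in nt. Per the submitters' processing notes, the authors used Novoalign 2.07.11, cutadapt and FastQC. Neither the genome build nor the tRNA annotation is given in the sources here. Alignments allow few mismatches, so a modified or altered base in a mature tRNA can leave a read with a precursor alignment alone.

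Groups and replicate numbers came from the labels. The members, places and named features were chosen with earlier results of these data known, and the lower share of precursor and trailer reads with taurocholate was among those results. The 40 leader bases were taken from error-free reads shared by a mature tRNA and its precursor, all of which were offset by 40. The mature 3′ end was set at the last CCA in reads without error, found for 320 of 403 mature references. Where this end was unknown (672 reads), a read could not be placed in the trailer and counted as body unless it began in the leader. A read with several places took that of most of its alignments (406 reads). CPM are per 1000000 tRNA reads of the library, and fold changes include TMM factors.

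Counts of all tRNA features and of all tRNA read sequences went into edgeR 4.0.16 under R 4.3.3 (quasi-likelihood test, TMM, filterByExpr, group as the sole term), with Benjamini-Hochberg adjustment and a threshold of 0.05. The script was tested on simulated data. Shares and lengths were compared between groups in exact permutation tests, two-sided, with Python 3.11.15. Named were the 10 features of highest mean CPM in trailers and in bodies, the 5 in leaders, and the 5 in each direction of smallest p among those with a mean CPM of 10 or more, with their commonest read sequences and the 3 sequences in each direction with the smallest p. The repeat-like trailer reads, the leader and body subgroups and the reads of taurocholate library 1 were described after the values were seen. Alternatives were DESeq2 1.42.0, library totals, no filter, error-free alignments, no reads of 51 nt, features by anticodon, each sequence counted 1 time, miRNA reads as denominator, no tolerance at the ends, a replicate block and each library left out.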

Additional observations from a re-analysis of the deposited data

Results flagged for a closer look

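Outside the nuclear set, 63 reads aligned to a precursor of a mitochondrial tRNA and to no mature tRNA. They numbered 6, 9 and 5 in untreated libraries 1 to 3 and 12, 12 and 19 in taurocholate libraries 1 to 3. They were singled out because they lie outside the precursor-only set, and the comparisons above use them only among the other tRNA reads. The difference between the groups was not tested.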

How the results depend on the processing

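Of 103 alternative values of the counts and measures compared, 97 kept their direction and their side of the threshold. For the shares, lengths and T runs that side was fixed in advance, since their exact permutation p cannot fall under 0.1. With the replicate block their direction was fixed as well, because the mean difference within pairs equals the difference of the group means. Without the filter on low counts edgeR called 7 of 845 precursor-only features (13 of 1235 over all) and 14 of 8336 read sequences (125 of 67949 over all), all 7 and all 14 higher with taurocholate and all with most reads in taurocholate library 1. DESeq2 called 2 read sequences. The mean length of body reads, 0.72 nt longer with taurocholate, was -0.061 nt without reads of 51 nt and -0.22 nt with each sequence counted 1 time. Leaving out each library in turn, the difference ranged from -1.32 to -0.77 percentage points for precursor-only reads, from -0.61 to -0.39 for trailer, from -0.50 to -0.36 for body and from -0.32 to -0.02 for leader reads, and from -9.04 to -3.84 for trailer reads ending in T. Mean length ranged from -0.29 to 0.034 nt for trailer reads and from 0.17 to 1.59 nt for body reads, and 0 features and 0 sequences were called each time.

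Of 33 named features, 24 kept their sign in every alternative that gave them a value. The Met-CAT chr2.trna7907 trailer, whose reads nearly all carry A7G, had no value with error-free alignments only. By library totals the log2 fold change turned to -0.078 for the leader of His-GTG chr3.trna3497, -0.081 for that of chr3.trna8791, -0.098 for the His-GTG bodies and -0.016 for the trailer set of 5 precursors. Without reads of 51 nt the His-GTG bodies were at -0.026. Leaving out each library, the range was -0.19 to 0.28 for the leader of chr3.trna3497, -0.11 to 0.20 for the His-GTG bodies, -0.060 to 0.25 for the leader of chr3.trna8791, -0.50 to 0.29 for the Cys-GCA trailer, -0.10 to 0.47 for the Phe-GAA leader, -0.66 to 0.058 for the body set of 6 proline precursors, -0.16 to 2.34 for Tyr-GTA chr2.trna2175, -0.13 to 0.57 for the Thr-TGT trailer and -0.22 to 0.36 for the set of 5. In each of these ranges the sign turned where taurocholate library 1 or 2 was left out. The cause was not tested.

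Same-numbered libraries were not treated as pairs in the main test. Their deviations from the group means correlated at -0.08, 0.13 and 0.25, the last being the highest of all pairs of libraries. Untreated library 2 correlated best with taurocholate library 1 (0.15). With 3 libraries per group, these values cannot tell whether a number marks a shared culture or batch. With the replicate number as a block 0 features and 0 sequences were called. The mean difference in precursor-only share within same-numbered pairs was -1.11 percentage points (exact sign-flip p = 0.25). That mean equals the difference of the group means by arithmetic, and so few pairs allow no smaller two-sided sign-flip p. Neither value therefore adds to the main comparison of the share. Read depth left 752 of 845 features untested.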

Other observations

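Several further sites differed from their reference at 1 base in most covering reads. The trailer of Ile-TAT chr6.trna245 had T5C in 100.0% of 121 covering reads and that of Met-CAT chr17.trna1907 had G4T in 98.2% of 111, counted from trailer base 1. In the leader of Pro-TGG chr10.trna13307 an A-to-C change was found in 98.9% of 875 covering reads, with 95.9% in the lowest library. In that of Asn-GTT chr12.trna323 a G-to-T change was in 98.6% of 277, and in that of Arg-TCT chr10.trna11253 a G-to-T change in 100.0% of 112. The leader of His-GTG chr3.trna3497 had a C-to-G change in 87.4% of 492 reads that reach that far. Positions were kept where at least 100 reads covered them and at least 80% of these had 1 base.

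Body reads of Val-AAC chr2.trna9605 were at 335, 97.6 and 126 CPM in untreated libraries and 878, 62.7 and 101 CPM with taurocholate, so library 1 was the highest of each group. Those of Val-AAC chr17.trna3670, another gene of the same anticodon, were at 1006, 700 and 827 against 278, 635 and 604 CPM, with library 1 the lowest of the taurocholate group. These genes were chosen after their values were seen.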
